A study of Homo sapiens with 5 samples.

Results

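The regions described here were 140 H3K27ac peaks at zinc finger genes on human chromosome 19, out of 1286 peaks on that chromosome and 20087 in the whole table. A peak was taken when its centre lay inside a protein-coding gene whose symbol begins with ZNF, or no more than 5 kb from one of its start sites, in the GENCODE v44 annotation of GRCh38. Of the 140 peaks, 128 were centred within 1 kb of a start site, 6 lay 1 to 5 kb away and 6 were placed by the gene body alone. They carried 125 gene names, 14 of which had 2 or more peaks.

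Most of these genes encode C2H2 zinc finger proteins with a KRAB domain. The fingers bind DNA, and the KRAB domain recruits the corepressor TRIM28 (KAP1), which in turn brings the histone methyltransferase SETDB1 and heterochromatin proteins. The genes arose by tandem duplication and stand in clusters along chromosome 19, and many of their proteins bind and silence retroelements. H3K27ac, acetylation of lysine 27 of histone H3, marks active promoters and enhancers, and a peak at a start site is commonly read as the mark of an active promoter.

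The cells were HCT116, a human colorectal carcinoma line, in the derivative CMV-osTIR1 RAD21-mAC. This derivative carries the plant auxin receptor OsTIR1 under the CMV promoter and a degron-tagged cohesin subunit RAD21. All libraries came from cells kept in 0.1% DMSO for 6 hours, and the labels name no auxin. IFN-β, a type I interferon that signals through STAT and IRF transcription factors, was then given at 1000 unit/ml for 1 h before H3K27ac ChIP in 2 libraries, while 2 control libraries had no further treatment, and 1 input library had no antibody. The titles place the control ChIP libraries at 0 min and both the IFN-β and input libraries at 60 min.

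The table held the authors' mean of each group as a log2 value per peak and no value per library, so no value here has a replicate error and no comparison was tested. The table gives no depth for any single library, and the study's methods give the aligned reads of the ChIP libraries only as a range, so the reads behind a peak had to be inferred. A floor shared by the lowest peaks, of -0.17 in control and -0.59 with IFN-β, was read as 1 read in each of the 2 libraries, and from it each difference was given a 95% interval that covers counting error only. On this reading the median zinc finger gene peak rested on 58.3 reads in control and 47.5 with IFN-β, against 87.7 and 71.8 for other chromosome 19 peaks. None of the 140 peaks sat at a floor. As a check of the cell label, all 4 epithelial genes examined (EPCAM, CDH1, KRT8 and KRT18) had a promoter peak and none of 4 blood genes did, while of 4 intestinal genes only CDX2 had one and CDX1, VIL1 and LGR5 had none.

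Promoter sequences show how closely some of these genes are related and where an ETS core lies in those that have one. Each stretch below runs from 90 bases before a start site to 50 bases after it, in GRCh38, on the gene's strand. Capitals in the first 9 mark an ETS core, searched as CCGGAAG on both strands, the sequence that ETS family activators such as GABPA bind. Of these 9, ZNF761 and ZNF714 hold no such core in the stretch shown and so have no capitals. The first 5 genes stand in 1 cluster and have peaks. ZNF714 and ZNF431 are neighbours with promoters 90.8% identical and different H3K27ac differences. ZNF587 and ZNF417 have promoters 96.9% identical and similar differences. ZNF382 and ZNF471 had no peak, and their capitals mark CpG dinucleotides.
ZNF766, chr19:52269503-52269643, plus strand: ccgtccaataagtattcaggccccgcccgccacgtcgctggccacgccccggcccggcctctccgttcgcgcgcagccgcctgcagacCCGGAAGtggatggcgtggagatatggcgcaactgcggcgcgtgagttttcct
ZNF808, chr19:52527619-52527759, plus strand: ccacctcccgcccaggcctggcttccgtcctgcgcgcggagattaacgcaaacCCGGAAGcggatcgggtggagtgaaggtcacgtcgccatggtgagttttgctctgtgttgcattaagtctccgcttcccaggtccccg
ZNF765, chr19:53395083-53395223, plus strand: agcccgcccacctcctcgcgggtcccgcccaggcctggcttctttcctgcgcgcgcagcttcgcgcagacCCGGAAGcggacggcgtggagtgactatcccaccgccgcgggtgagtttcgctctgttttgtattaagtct
ZNF845, chr19:53333659-53333799, plus strand: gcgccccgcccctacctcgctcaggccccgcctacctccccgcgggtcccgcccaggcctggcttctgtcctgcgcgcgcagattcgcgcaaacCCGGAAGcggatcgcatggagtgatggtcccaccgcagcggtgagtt
ZNF761, chr19:53431903-53432043, plus strand: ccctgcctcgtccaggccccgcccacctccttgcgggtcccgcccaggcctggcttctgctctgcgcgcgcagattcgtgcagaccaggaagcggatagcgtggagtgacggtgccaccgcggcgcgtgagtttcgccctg
ZNF714, chr19:21082160-21082300, plus strand: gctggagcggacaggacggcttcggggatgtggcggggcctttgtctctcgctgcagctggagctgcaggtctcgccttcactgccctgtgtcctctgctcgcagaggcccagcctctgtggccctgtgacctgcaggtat
ZNF431, chr19:21141987-21142127, plus strand: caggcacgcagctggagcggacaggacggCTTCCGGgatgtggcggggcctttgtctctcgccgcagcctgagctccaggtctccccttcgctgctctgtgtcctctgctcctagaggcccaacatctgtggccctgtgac
ZNF587, chr19:57849770-57849910, plus strand: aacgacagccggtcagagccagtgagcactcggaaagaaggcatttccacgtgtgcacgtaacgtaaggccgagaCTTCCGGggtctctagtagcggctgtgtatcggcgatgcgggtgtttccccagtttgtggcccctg
ZNF417, chr19:57916527-57916667, minus strand: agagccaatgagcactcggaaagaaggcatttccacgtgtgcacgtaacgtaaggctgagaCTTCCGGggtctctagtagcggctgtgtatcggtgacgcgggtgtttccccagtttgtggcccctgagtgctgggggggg
ZNF382, chr19:36605223-36605363, plus strand: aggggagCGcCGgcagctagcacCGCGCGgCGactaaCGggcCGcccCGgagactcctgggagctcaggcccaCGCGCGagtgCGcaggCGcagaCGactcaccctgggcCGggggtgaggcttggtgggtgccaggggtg
ZNF471, chr19:56507765-56507905, plus strand: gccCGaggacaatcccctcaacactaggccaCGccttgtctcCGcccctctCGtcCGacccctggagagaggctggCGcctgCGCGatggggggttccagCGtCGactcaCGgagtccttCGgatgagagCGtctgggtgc

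Peaks of zinc finger genes carried less H3K27ac than the rest of the chromosome. Their median log2 level in control cells was 4.70, with quartiles of 4.04 and 5.58, against 5.28 for the 1146 other chromosome 19 peaks, whose quartiles were 4.25 and 6.02. The gap of -0.59 between the medians is a signal of about 0.664 times that of the other peaks. After IFN-β the medians were 3.98 and 4.58, a gap of -0.60. Across 5 bands of GC content, from low to high, the gap in control medians was -0.50, 0.045, -0.49, -0.06 and -0.545. The lower level was thus small or absent in bands 2 and 4, which held 21 and 35 zinc finger gene peaks. In a ChIP of many cells, fewer cells with the mark and less of it per cell cannot be told apart. A log2 level above 6 in control was reached by 25 of the 140 peaks (17.9%) and by 25.6% of the others. The others included 11 peaks of genes with other zinc finger symbols (ZFP, ZSCAN, ZIM, ZIK, PEG3 or ZBTB). Their median control level was 6.13, so the lower level was not shared by those genes.

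The lower level was clearest at promoters. Among peaks centred within 1 kb of a start site the median control level was 4.78 for zinc finger genes and 5.59 for the 748 other promoter peaks of chromosome 19. The 221 promoter peaks of ZNF genes on other chromosomes had a median of 5.47, close to that of all 11334 promoter peaks in the table, 5.52. Zinc finger promoter peaks that also lay within 1 kb of a start site of another protein-coding gene were stronger, with a median of 5.29 over 25 peaks, than the 103 that did not, with 4.69. The 6 peaks placed only by a gene body ran from 3.34 to 4.16, with a median of 3.88.

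The strongest of these peaks stood near the end of the long arm. ZNF524 had the highest control level, 7.08, in a peak centred upstream of its start site and shared with FIZ1, and its level with IFN-β was 6.22. ZNF787 had levels of 6.84 and 5.87, and ZNF460 had 6.79 and 5.93. These lie in the cluster at 55.5 to 58.5 Mb, as does ZNF581, which shares its peak with CCDC106 and had levels of 6.67 and 5.59. ZNF574, further toward the centromere, had 6.68 and 5.68. The strongest peak of each other cluster with at least 3 peaks was weaker. ZNF558, ZNF564 and ZNF302 led theirs with control levels of 6.51, 6.41 and 6.34 and IFN-β levels of 5.41, 5.36 and 5.52. ZNF428 had 6.22 and 5.49, ZNF146, which consists of zinc fingers without a KRAB domain, had 6.12 and 5.20, and ZNF101 had 5.96 in control. ZNF507 (5.63 and 5.01), ZNF77 (5.50), ZNF780A (5.32 and 4.59) and ZNF766 (5.27) closed the order. At the other end were both peaks of ZNF28, with control levels of 2.02 and 2.00, in sequence of which 52.2% and 50.3% is repeated elsewhere in the genome (share of 31-base words found more than once).

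The authors' normalised IFN-β level was below control for nearly all peaks of the table. By medians, zinc finger gene peaks of chromosome 19 were slightly further below than its other peaks. A peak at the floor of both groups, read here as equal reads, has a difference of -0.42. The differences thus depend on how the libraries were scaled, and what part of the shared fall comes from scaling was not tested. The median difference, IFN-β minus control on the log2 scale, was -0.80 for zinc finger gene peaks, -0.74 for other chromosome 19 peaks and -0.69 for all peaks. Between promoter peaks alone the medians were -0.82 for chromosome 19 zinc finger genes, -0.81 for ZNF genes on other chromosomes and -0.77 for other chromosome 19 genes. Summing the signal of the 140 peaks gave a difference of -0.786 (95% counting-only interval -0.825 to -0.746), against -0.739 (-0.752 to -0.727) for the other chromosome 19 peaks. Differences lower than the median of all peaks were found for 90 zinc finger gene peaks (64.3%) and for 56.8% of the other chromosome 19 peaks. The libraries of a group cannot be separated in these means, so whether a gap of -0.06 exceeds the spread between libraries is unknown.

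A normalised signal at or under 50% of control, a difference of -1 or lower, was found for 39 of the 140 peaks (27.9%), for 240 other chromosome 19 peaks (20.9%) and for 18.1% of all peaks. A level above control was found for 6 zinc finger gene peaks (4.29%), for 56 of the others (4.89%) and for 5.93% of all. Once every difference was centred on the median of all peaks, 6 zinc finger gene peaks (4.29%) were at -1 or lower, against 1.44% of all peaks, and 35.0% were above 0, against 49.1%. Those 6 were weak peaks, of ZNF28, ZNF222, ZNF134, ZNF417, ZNF587 and ZNF567. Their control levels were 2.00 to 4.91, and they rested on 3.03 to 28.1 inferred reads with IFN-β. Repeated sequence made up 50.3% of the ZNF28 peak, 36.2% of that of ZNF417 and 33.9% of that of ZNF587. Taken against the median of all peaks, the counting-only interval lay wholly below it for 16 zinc finger gene peaks (11.4%, against 8.05% of all peaks) and wholly above it for 7 (5.00%, against 8.82%). The differences of the 140 peaks had an SD of 0.449 across peaks, and counting error alone would give about 0.326. The other chromosome 19 peaks were similar, with an SD of 0.415 and about 0.296 from counting error.

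**Figure D1:**
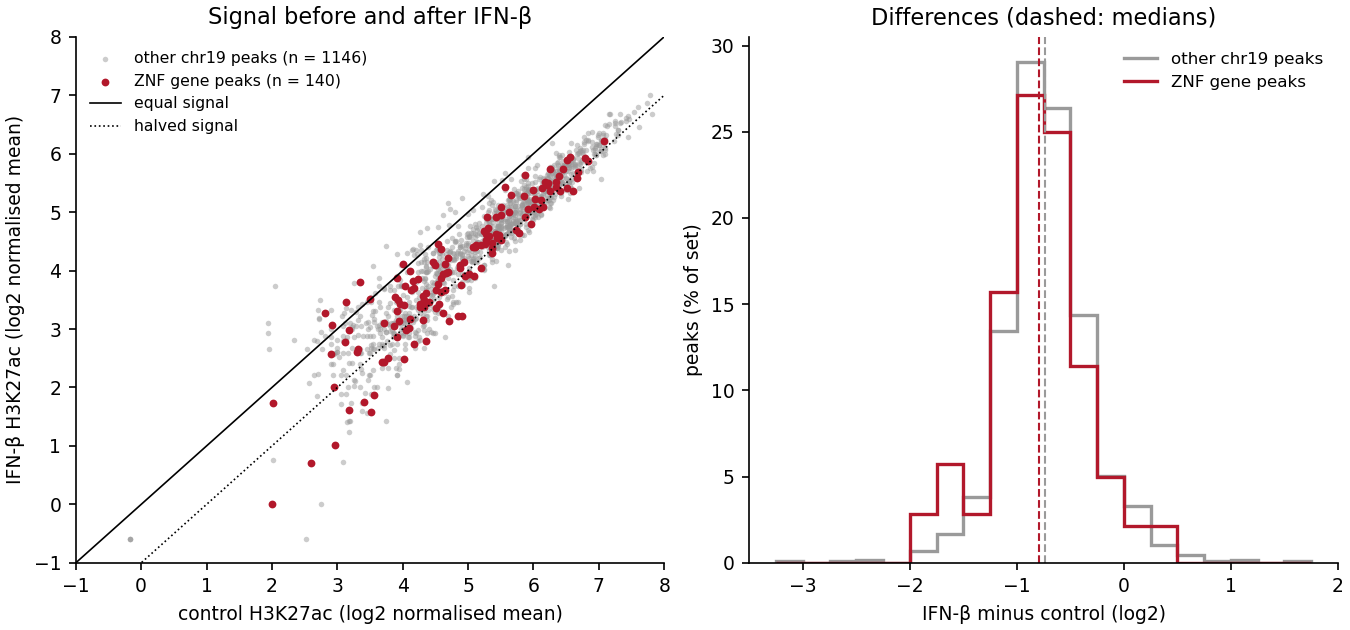
Left, authors' mean H3K27ac level (log2) with IFN-β against control for each chromosome 19 peak, with zinc finger gene peaks in red and the others in grey, and lines for equal and halved signal. Right, share of peaks in each set by difference in bins of 0.25, with medians of -0.80 and -0.74 dashed; the red points follow the grey cloud and are fewer at its strong end.

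Among the 61 zinc finger gene peaks with a control level of at least 5, differences ran from -1.24 to -0.13, none was above 0 and 14 were at -1 or lower (23.0%, against 17.9% of 655 other chromosome 19 peaks that strong). The lowest were ZNF544, whose log2 level was 6.6 in control and 5.36 with IFN-β (difference -1.24, counting-only interval -1.56 to -0.92), and ZNF714, with 5.09 and 3.90 (-1.19, -1.72 to -0.66). ZNF101 followed with 5.96 and 4.79, then ZNF114 with 5.78 and 4.64 and ZNF805 with 5.19 and 4.05. The ZNF114 peak holds 38.9% repeated sequence, and the other 4 hold at most 11.2%.

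The smallest differences among strong peaks were at ZNF473, with 5.56 in control and 5.43 with IFN-β (-0.13, counting-only interval -0.50 to 0.24), and at a peak of ZNF526 between 1 and 5 kb upstream, with 5.87 and 5.64. ZNF473 encodes a component of histone pre-mRNA processing, and its peak is shared with VRK3. ZNF579 had 5.66 and 5.30, ZNF627 had 5.29 and 4.91, and ZNF77 had 5.50 and 5.08. The interval of ZNF526 was -0.57 to 0.11, and like that of ZNF473 it lay wholly above the median of all peaks.

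The 79 weaker peaks spread more widely, from -1.99 to 0.47, with 25 at -1 or lower and all 6 of the values above 0. Weak peaks in general did so: of 491 other chromosome 19 peaks with a control level below 5, 123 (25.1%, against 31.6% of the 79) were at -1 or lower and 51 were above 0. Those 6 were ZNF565 (0.47), the peak 2861 bp downstream of the ZNF430 start site (0.46), ZNF431 (0.33), ZNF283 (0.15), ZNF573 (0.12) and ZNF224 (0.02), named here after their values were seen. None had a counting-only interval clear of 0. The other chromosome 19 peaks reached 1.70.

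Within bands of strength or base composition the gap in median difference was negative except in the lowest GC band, but its size varied. In bands of equal peak number by mean signal, the median difference of zinc finger gene peaks less that of other chromosome 19 peaks was -0.09 to -0.02 in the 4 upper bands. In the weakest band it was -1.04 for 25 zinc finger gene peaks and -0.76 for 185 others. By GC content, the gap was between -0.23 and -0.01 in the 4 upper bands. The lowest GC band held only 4 zinc finger gene peaks, with a median difference of 0.21.

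Along the chromosome, genes less than 1 Mb apart formed 16 clusters of the 249 protein-coding ZNF genes, and 12 clusters held at least 3 peaks. Fewer ZNF genes had a promoter peak than other protein-coding genes: 130 of 249 (52.2%) against 747 of 1227 (60.9%). Those others included 19 genes with other zinc finger symbols (ZFP, ZSCAN, ZIM, ZIK, PEG3 or ZBTB), of which 7 had one (36.8%). The share of ZNF genes varied widely between clusters. In the pericentromeric cluster from ZNF101 to ZNF254, at 19.7 to 24.1 Mb, 11 of 37 genes had one (29.7%), and in that from ZNF565 to ZNF573, at 36.2 to 37.8 Mb, 10 of 26 (38.5%). In the cluster from ZNF557 to ZNF846, at 7.1 to 9.8 Mb, the count was 12 of 16 (75.0%). In the pericentromeric cluster 25 of the 37 start sites hold at least 10% repeated sequence, and of the 12 that do not, 6 had a peak. Without such start sites the lowest shares among clusters of 3 or more genes were 33.3%, in those from ZNF565 (8 of 24) and from ZNF653 (7 of 21). The shares over the chromosome were then 54.4% of 193 ZNF genes and 68.5% of 966 others. ZNF536, alone in its stretch and known for a role in neurons, had no peak.

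**Figure D2:**
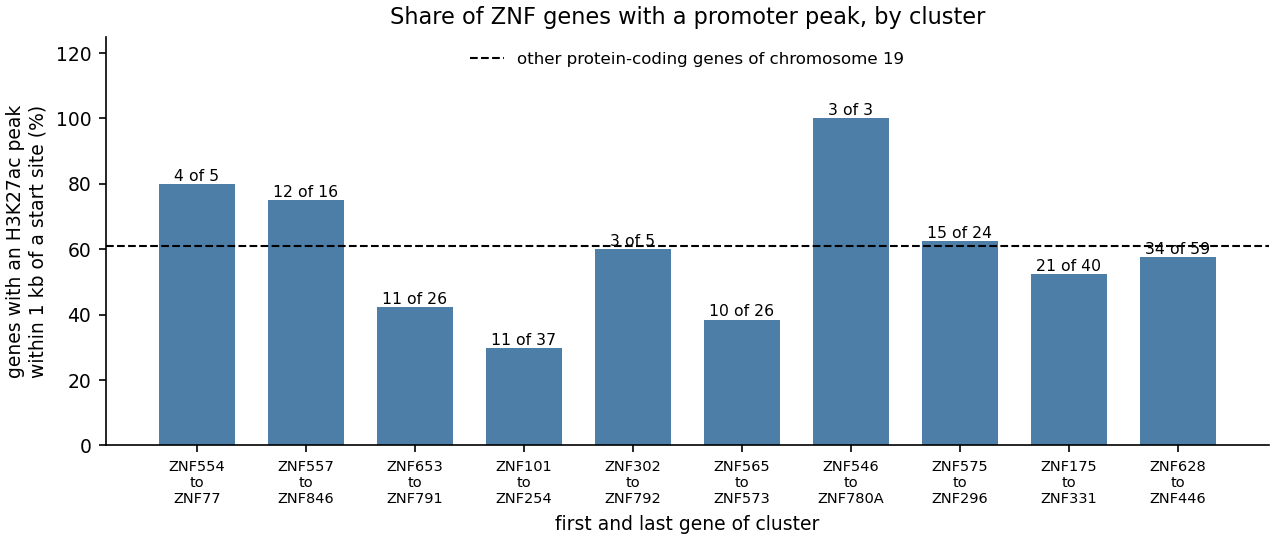
Share (%) of protein-coding ZNF genes with an H3K27ac peak centred within 1 kb of a start site, for the clusters of 3 or more genes in order along chromosome 19, with counts above the bars. The dashed line is the 60.9% of other protein-coding genes; the cluster from ZNF101 has the lowest bar, 11 of 37, which is 6 of 12 without start sites in repeated sequence.

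Cluster medians spanned 1.71 log2 units in control level and 0.73 in the difference. Both ends of the level span were clusters of 3 peaks, ZNF507 (4.16) and ZNF574 to ZNF526 (5.87). Among clusters with more than 3 peaks the medians ran from 4.22 to 5.32 in level and from -1.06 to -0.66 in the difference. The cluster at 51.6 to 53.6 Mb, from ZNF175 to ZNF331, had the lowest median among those with more than 3 peaks, 4.22 over 22 peaks, and no peak above 5.27 (ZNF766). The neighbouring cluster from ZNF628 to ZNF446 had a median of 5.24 over 37 peaks and held 4 of the 5 strongest peaks. The cluster from ZNF557 had 5.31, that from ZNF653 to ZNF791 had 5.32, and the pericentromeric cluster had 4.54. Repeated sequence made up at least 10% of 10 of the 22 peaks from 51.6 to 53.6 Mb, 6 of 12 in the pericentromeric cluster and 7 of 37 in the last cluster. It did not follow the level in every cluster, with 4 of 12 peaks in the strong cluster from ZNF653, and 1 of 17 and 2 of 9 in the weaker clusters from ZNF575 (median 4.46) and ZNF565 (4.64). Over all clusters the 35 peaks so repeated had a median control level of 4.24 and the other 105 had 5.01; the part of repeated sequence in the cluster levels was not tested.

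The lowest median difference of a cluster was -1.06, in the pericentromeric cluster, where 7 of 12 peaks were at -1 or lower, against 20.9% of other chromosome 19 peaks and 18.1% of all. Of its 12 peaks 6 were repeated. Over the chromosome, 14 of the 35 repeated zinc finger gene peaks (40%) were at -1 or lower, against 23.8% of the 105 not repeated. Within this cluster the peaks that low were of both kinds. ZNF101, ZNF738 and the start-site peak of ZNF430 were repeated, while ZNF14, ZNF714, ZNF708 and ZNF254 were not. Its values ran from ZNF738 at -1.34, with ZNF714, ZNF101, ZNF14 and ZNF430 between -1.19 and -1.14, to ZNF431 at 0.33. The highest was -0.34, for the 3 peaks of ZNF507, 2 of which lie inside the gene. The cluster from ZNF575 to ZNF296, at 43.5 to 45.1 Mb, had -0.68, and the last cluster had -0.87 with 11 of 37 peaks at -1 or lower. By summed signal the counting-only intervals of 9 of the 12 clusters took in the -0.739 of the other chromosome 19 peaks, that of the pericentromeric cluster included (-1.06 to -0.72). The exceptions were the last cluster, at -0.84 (-0.91 to -0.77), the cluster from ZNF653, at -0.88 (-1.01 to -0.76), and ZNF507, at -0.44 (-0.73 to -0.14).

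**Figure D3:**
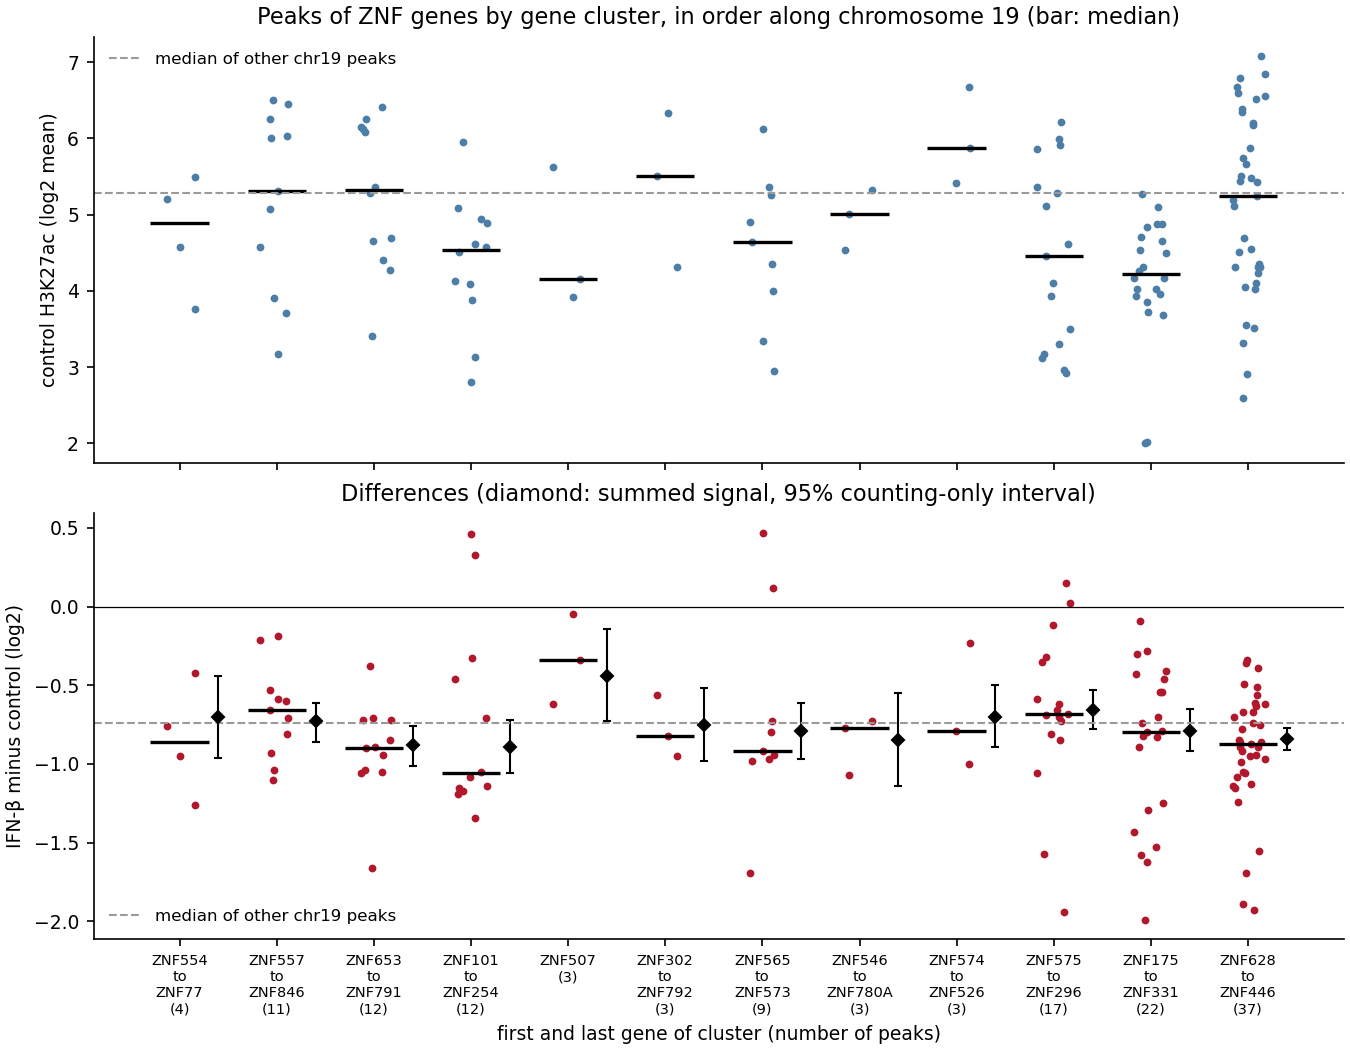
Control H3K27ac level (top, log2) and IFN-β minus control difference (bottom, log2) of each zinc finger gene peak, by gene cluster in order along chromosome 19, for the 12 clusters with at least 3 peaks. Bars are medians, diamonds the difference of the summed signal with its 95% counting-only interval, and dashed lines the medians of other chromosome 19 peaks, 5.28 and -0.74; peaks overlap widely between clusters in both panels.

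Peaks of 1 cluster had widely spread differences. In the cluster at 43.5 to 45.1 Mb, ZNF222 had 2.96 in control and 1.02 with IFN-β, and ZNF221 had 3.18 and 1.61, while ZNF224 had 3.50 and 3.52. ZNF225 (-0.35), ZNF226 (-0.12), ZNF230 (-0.70) and ZNF283 (0.15) filled the space between. All 7 were weak peaks, with 4.11 the highest control level, and the counting-only intervals of ZNF222 (-3.27 to -0.61) and ZNF224 (-0.72 to 0.76) overlapped. In the cluster at 51.6 to 53.6 Mb, ZNF761 had 4.84 and 3.22 (-1.62, -2.26 to -0.98) and ZNF808 had 4.71 and 3.13 (-1.58, -2.24 to -0.92), while ZNF888, which lies between them with other ZNF genes in the gaps, had 4.54 and 4.45 (-0.09, -0.61 to 0.43). These were chosen after their values were seen, as values near the ends of the cluster's range, and their intervals cover counting error only. Repeated sequence made up 12.3% of the ZNF761 peak, 7.62% of that of ZNF808 and 11.7% of that of ZNF888.

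By median gap, and without matching for read number, related promoters were no closer in their differences than other pairs. The stretches of 141 bases around the start sites of 124 promoters gave 363 pairs that could be aligned over at least 100 columns, and 118 of these pairs were at least 70% identical, all of them within a cluster. The highest identity between clusters was 65.1%. The median gap in difference within the 118 pairs was 0.64, against 0.37 over all pairs and over all pairs of the same cluster. These pairs come from 39 promoters and include many with a weak peak. Both peaks of ZNF28, which recur among them, rested on 9.13 and 9.0 inferred reads in control. Counting error widens the gap between weak peaks, and its part in the 0.64 was not tested. ZNF587 and ZNF417, 96.9% identical, had differences of -1.69 and -1.89. ZNF714 and ZNF431, 90.8% identical, had -1.19 and 0.33, with control levels of 5.09 and 3.13, and the 2 peaks of ZNF28, 98.4% identical, had -0.28 and -1.99. In the run of genes from ZNF808 to ZNF761 printed above, identities were 76.2% to 87.3%, and the differences were -1.58 for ZNF808, -1.29 for ZNF845, -1.53 for ZNF765 and -1.62 for ZNF761, all below the -0.74 of ZNF766. Other promoters of the same stretch did not have such low values: ZNF525, which is 85.2% identical to ZNF845 and lies between it and ZNF765, had -0.30, the ZNF83 peaks (87.6% and 84.1% identical to ZNF845) had -0.54 and -0.43, and ZNF888 (77.6%) had -0.09. Reads that fit 2 such copies equally well cannot be placed with certainty, and how the authors placed them is not given in the sources used here, so the split of signal within these pairs is uncertain.

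An ETS core was more frequent at zinc finger promoters than at others. Within 500 bp of the peak centre, CCGGAAG or its complement was found in 71 of 128 zinc finger promoter peaks (55.5%), in 216 of 748 other promoter peaks of chromosome 19 (28.9%) and in 30.0% of all promoter peaks. ZNF promoter peaks on other chromosomes lay between, at 43.0%. The match stood within 100 bp of the start site in 44 of the 128 (34.4%) and in 80 of the 748 (10.7%), with a median place 27 bp upstream in zinc finger promoters. In each GC band with zinc finger promoter peaks the share was higher for them, from 47.4% to 63.6%, than for other promoter peaks of the chromosome, at most 35.6%. Without repeated peaks the share was 51.0% of 100 zinc finger promoter peaks and 30.2% of 646 others. Promoters that arose by duplication share sequence, so these are not independent instances.

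**Figure D4:**
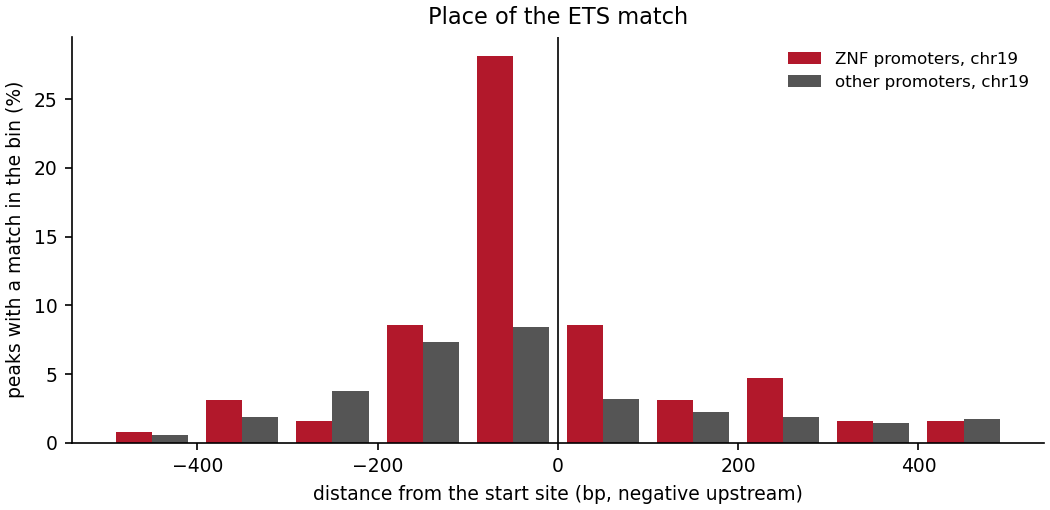
Share (%) of promoter peaks with an ETS core in each 100-bp bin of distance from the start site, for the 128 zinc finger promoter peaks (red) and the 748 other promoter peaks of chromosome 19 (grey). In the bin just upstream of the start site the shares are 28.1% and 8.42%.

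The ETS core was as frequent at zinc finger genes that had no peak. In the 1001 bp around the start site it was present for 53.1% of the 130 ZNF genes with a promoter peak and for 52.9% of the 119 without one. For other protein-coding genes of the chromosome the shares were 33.3% of 747 with a peak and 9.79% of 480 without. CpG dinucleotides showed the same contrast, with a median of 61 at ZNF genes with a peak and 55 at those without, against 76 and 26 at other genes. The counts at the 119 ZNF genes without a called peak ran from 7 to 108, with quartiles of 44 and 66, and ZNF382 (86) and ZNF471 (82), printed above, lie above the upper quartile. A missing peak call does not show that H3K27ac is absent.

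Peaks with the ETS core were more often at -1 or lower: 27 of 71 zinc finger promoter peaks with it (38.0%) and 11 of 57 without (19.3%). Among other chromosome 19 promoters the shares were 17.6% of 216 and 22.2% of 532, in the opposite order. Without repeated peaks the zinc finger shares were 29.4% of 51 and 20.4% of 49. At a control level of at least 5 they were 31.3% of 32 and 16.0% of 25. Other chromosome 19 promoters that strong had 16.7% of 168 and 20.1% of 343. Over all zinc finger promoter peaks the medians lay close together, at -0.86 with the core and -0.79 without. The counting-only intervals of their summed differences, -0.897 to -0.788 and -0.825 to -0.697, overlapped. Of the 27 peaks with the core at -1 or lower, 10 stood in the last cluster, 6 in that at 51.6 to 53.6 Mb and 5 in the pericentromeric cluster, where related promoters are common.

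Other motifs set zinc finger promoters less clearly apart. TATAAA was found in 20.3% of them and in 12.8% of other promoter peaks of the chromosome, and the CRE letters TGACGTCA, bound by CREB and ATF factors, in 9.38% and 4.95%. The YY1 letters AAGATGGCG were found in 11.7% and 8.02%. The E-box CACGTG, bound by MYC and USF factors, was rarer, in 14.8% against 24.9%. The interferon response letters GAAANNGAA were found in 14.8% and 15.9%, and in 18.8% of all promoter peaks. The remaining letters searched were GGGCGG (GC box, 89.8% against 93.3%), GCGCATGC (NRF1, 7.03% against 10.2%), ACTACAANT (ZNF143, 6.25% against 4.55%) and TGAGTCA (AP-1, 7.81% against 11.6%). Each was searched on both strands, and a match is a match of letters, not a bound site.

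**Figure D5:**
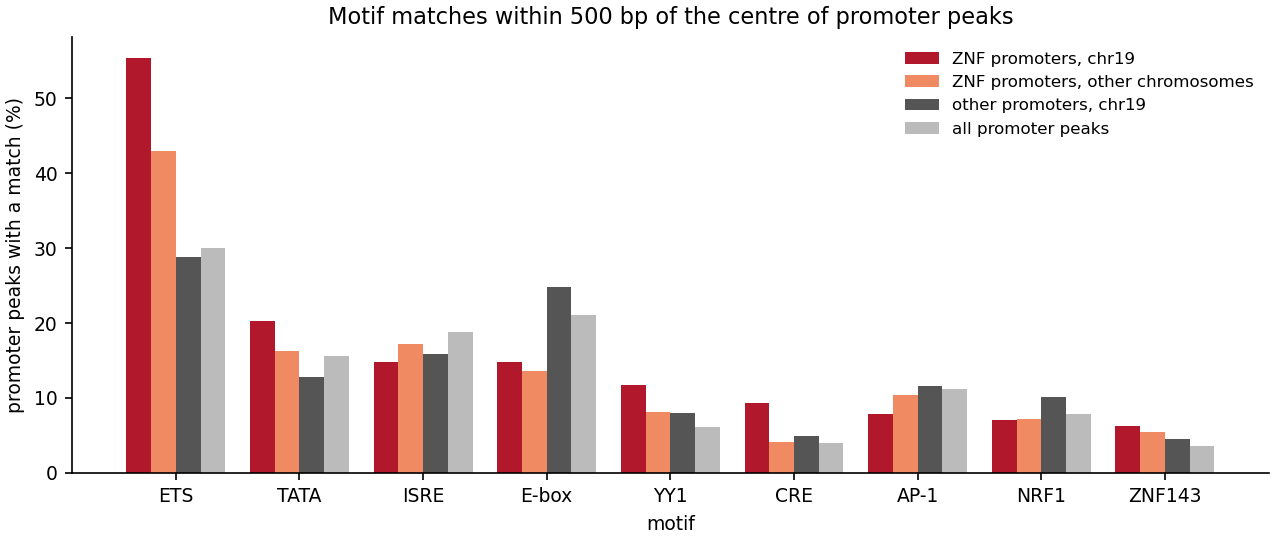
Share (%) of promoter peaks with each motif's letters within 500 bp of the centre, for 128 zinc finger promoter peaks of chromosome 19, 221 ZNF promoter peaks of other chromosomes, 748 other promoter peaks of chromosome 19 and all 11334 promoter peaks. The GC box, near 90% in all sets, is not drawn; ETS shows the widest gap, 55.5% against 28.9%.

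The peaks also lay differently on the promoter. The centre of a zinc finger promoter peak stood a median of 123.5 bp downstream of the start site, and 75.8% were downstream, against 48.5 bp and 57.8% for other promoter peaks of the chromosome. Few promoter peaks were wider than 1000 bp, 7.81% and 10.6%. The median GC content of promoter peaks was 60.1% and 64.4%.

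Among genes with a known function in the family, some had a called peak and some did not. ZNF91, which represses SVA retroelements, had levels of 3.88 in control and 3.55 with IFN-β. ZNF93, which represses L1 elements, had no peak. ZNF274, which recruits SETDB1 to the 3′ ends of ZNF genes themselves, had 5.12 and 4.42, and ZNF160 had 4.32 and 3.50. ZNF224, a repressor of the aldolase A gene, had 3.50 and 3.52. ZNF121 was the strongest of the list, with 6.01 and 5.08. No peak was found for ZNF350, a partner of BRCA1, for ZNF331 or for ZNF175. Of these 9 genes 5 had a peak, at a median difference of -0.70, while 130 of all 249 ZNF genes of the chromosome (52.2%) had a promoter peak.

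The 5 genes listed for promoter methylation in tumours, ZNF154, ZNF331, ZNF382, ZNF471 and ZNF677, had no peak in HCT116. Of all 249 ZNF genes of the chromosome, 119 (47.8%) had no promoter peak. Their start sites held 58 to 93 CpG dinucleotides in 1001 bp, at or above the median of 55 for ZNF genes without a peak. The table covers histone acetylation and says nothing of the methylation of these sites.

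The genes listed for corepressor and heterochromatin factors all had a called peak. All 13 had one within 1 kb of a start site. On chromosome 19 that share was 52.2% of ZNF genes and 60.9% of other genes. Most of the 13 lie on other chromosomes, and the share over all genes was not taken. Taking the strongest peak of each, the median control level was 5.88, and the differences ran from -1.02 (CBX1) to -0.40 (MORC3) with a median of -0.69. TRIM28, itself at the end of chromosome 19, had 6.53 in control and 5.70 with IFN-β, and SETDB1 had 5.54 and 4.86. TASOR, of the HUSH complex, had 6.98 and 6.16, and CBX3, a heterochromatin protein, had 7.52 and 6.84. Of the 13, ATRX had the lowest control level, 4.56.

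Around the limit of 5 kb, the peaks included at the greatest distance outside a gene body were at ZNF580 (2861 bp, difference -0.67), ZNF296 (2942 bp, -0.85) and ZNF628 (3607 bp, -0.63). Those next outside were 5202 bp from ZNF101 (-1.01), 5617 bp from ZNF414 (-0.69) and 5697 bp from ZNF837 (-1.10).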

How the data were processed

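H3K27ac ChIP-seq was compared between IFN-β and control HCT116 libraries, 2 each, with 1 input. The submitters' processing notes name bcl2fastq 2.17, fastp 0.19.3, Bowtie2 2.25, SAMtools, MACS2, DiffBind and DESeq2 and the build GRCh38. The authors called peaks per library against input, merged them in DiffBind and deposited 3 log2 columns of normalised mean signal per peak: over all H3K27ac libraries, control and IFN-β. Their fold, p-value and FDR columns were not used, beyond checking that the fold equals IFN-β minus control within 0.01. Columns of single libraries left unused numbered 0.

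Peak centres were matched to GENCODE v44, and 1001 bp around each centre was read from GRCh38, for GC content, motif letters and repeated 31-base words, using scipy 1.17.1, numpy 2.4.6 and pandas 2.3.3 under Python 3.11.15. Promoters were aligned with Biopython 1.88 with free end gaps. Counting-only intervals took the lowest value of each column as 1 read in each of 2 libraries and were tested on simulated data. They leave out input subtraction and the spread between libraries, and are thus too narrow. Members and gene lists were chosen with earlier results of these data known. Genes were named as the 5 highest control levels, the 5 highest and 5 lowest differences at a control level of at least 5, and the highest level of each cluster, with others named as examples. Features of the encoded proteins were not analysed here.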

Additional observations from a re-analysis of the deposited data

How the results depend on the processing

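No paired analysis was possible because the table holds group means and no value per library, and no library could be left out for the same reason. The gap in median difference was taken again with alternative definitions of the peaks (start-site window, gene ends, shared promoters, other zinc finger symbols). It was also taken with lowest values left out, with promoter peaks alone, against peaks outside chromosome 19 and, added after seeing the data, with repeated peaks left out. The gap varied from -0.11 to -0.01 and was -0.01 without repeated peaks. With control levels of at least 5, the gap in median level was -0.04 in control and -0.14 with IFN-β, and the share above control was 0%, since this filter acts on the level itself. Centred on the median of all peaks, 4.29% of the zinc finger gene peaks were at -1 or lower (1.44% of all peaks) and 35.0% were above 0 (49.1% of all). Those at -1 or lower all had control levels of 4.91 or less. The span of cluster medians in control level was 2.07 with clusters split at 0.5 Mb, 1.15 at 2 Mb, 0.82 with control levels of at least 5 and 1.40 with promoter peaks alone, and the span of median differences was 0.23 with control levels of at least 5. The ETS share of promoter peaks was 35.9% within 250 bp of the centre (20.2% of other promoter peaks of the chromosome), a narrower window. Genes with a peak numbered 132 within 5 kb or in the body and 130 within 1 kb. Without start sites in repeated sequence, an alternative added after seeing the data, 107 of 193 genes had a peak within 5 kb or in the body. The table gives no depth per library, and the weakest peaks rest on few reads.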
